A study of Mus musculus with 24 samples.

Results

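Aire, 2610528A11Rik and Nsg1 are 3 protein-coding genes, of 24043 gene symbols in the deposited table, that were picked out of RNA-seq of C2C12 cells because of how they moved with oxygen or culture medium. Aire and 2610528A11Rik were picked for a strong rise with hypoxia in growth medium, and Nsg1 for a fall on differentiation in hypoxia. The members were thus chosen by their FPKM values in those comparisons, which are given as a description. Tests of members are given only for comparisons that these stated reasons do not name. Earlier results of these data were known when the members were chosen, so the tests are not fully independent of the choice. The spread behind each main p-value was estimated from all 8 libraries, including those by which the members were chosen. C2C12 is an established mouse myoblast line whose cells divide in serum-rich medium and fuse into myotubes when serum is withdrawn. The cells were kept in growth medium with 10% fetal bovine serum or in differentiation medium with 2% horse serum and an insulin, transferrin and selenium supplement, each at 21% oxygen (normoxia) or 2% oxygen (hypoxia). Each of the 4 conditions had 2 RNA-seq libraries from biological replicates A and B. All groups are the same line with no genetic change, and the labels give neither the hours at low oxygen nor the total time in differentiation medium. The 8 chromatin and 8 input libraries of the series were not analysed here.

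Cells sense oxygen through prolyl hydroxylases that mark the alpha subunits of hypoxia-inducible factors (HIF) for destruction. When oxygen is low the alpha subunits persist, pair with ARNT, and bind DNA at a short core written ACGTG or GCGTG. Aire encodes the autoimmune regulator, a nuclear protein of medullary thymic epithelium that switches on genes of other tissues so that developing T cells can be tested against them. 2610528A11Rik, which RefSeq also lists as Gpr15l, encodes a small secreted ligand, made by epithelia of the gut and skin, of GPR15, a G protein-coupled receptor found on T cells. Nsg1, also listed as Neep21, encodes a membrane protein of neuronal endosomes that takes part in the recycling of receptors to the cell surface. None of the 3 is a gene of the contractile apparatus of muscle.

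The start regions of Aire and 2610528A11Rik are shown because both genes were far higher at 2% oxygen. The windows come from RefSeq on build GRCm38.p6, run 5′ to 3′ on the minus strand from 250 bases before to 50 bases after the annotated start, and have any ACGTG or GCGTG in capitals. The Aire window is chr10:78043561-78043860 and the 2610528A11Rik window is chr14:37110052-37110351. The deposited values were made on the older build mm9, so these positions locate the printed bases alone.
Aire: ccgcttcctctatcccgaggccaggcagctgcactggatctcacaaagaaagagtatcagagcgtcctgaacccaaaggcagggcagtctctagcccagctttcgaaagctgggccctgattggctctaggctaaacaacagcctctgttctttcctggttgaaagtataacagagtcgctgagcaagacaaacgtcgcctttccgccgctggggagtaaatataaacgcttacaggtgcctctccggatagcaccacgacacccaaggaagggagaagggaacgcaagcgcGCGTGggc
2610528A11Rik: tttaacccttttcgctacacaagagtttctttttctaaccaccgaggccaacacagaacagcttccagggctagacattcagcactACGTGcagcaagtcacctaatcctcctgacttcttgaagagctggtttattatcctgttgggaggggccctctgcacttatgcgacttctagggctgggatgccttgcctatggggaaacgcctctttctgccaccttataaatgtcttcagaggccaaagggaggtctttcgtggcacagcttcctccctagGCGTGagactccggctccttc
The motif ACGTG, the motif GCGTG and the box TATAAA were searched on both strands, and no matches overlapped in these windows. In the Aire window GCGTG was found 1 time, from base 43 with the start as base 1, and ACGTG was found 0 times. In the 2610528A11Rik window ACGTG was found 1 time, 164 bases before the start, and GCGTG 1 time, from base 30. TATAAA began 29 bases before the start of Aire and 27 bases before that of 2610528A11Rik. Of 32851 RefSeq windows of the same length, 19.6% held ACGTG, 32.4% held GCGTG, 43.8% held either and 13.6% held TATAAA. Such matches are letters in a window and were not tested for binding.

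Values are those deposited by the authors, taken as FPKM (fragments scaled for transcript length and library size), and they summed to between 480018 and 534167 per library. The number of fragments behind a value is unknown, so no counting interval is given. Replicates correlated with r of 0.958 to 0.983 across 12389 genes. Hypoxic differentiation medium stood apart, with 613 genes more than 2-fold apart in FPKM + 1 between its replicates against 56 to 71 in the other groups. The 8 listed proliferation genes summed to 30.1 FPKM in its replicate A and 185 in replicate B. The myoblast gene Myod1 was 139 and 108 FPKM in normoxic growth medium. All 7 listed myoblast markers were called lower with hypoxia in growth and in differentiation medium (limma adjusted p under 0.05). Of all genes, 28% and 27.7% were called lower in these comparisons. The 7 listed myotube markers summed to 10998 and 11167 FPKM in normoxic differentiation medium but to 37.3 and 27.1 at 2% oxygen in this medium, so the latter label names the medium and not the presence of myotubes. In bulk RNA, fewer cells that express a gene and less RNA per cell cannot be told apart.

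Aire was close to absent in normoxia and was a moderately abundant mRNA in hypoxia. It was 0.0427 and 0.264 FPKM in normoxic growth medium (replicates A and B) and 56.7 and 53.8 in hypoxic growth medium. In differentiation medium it was 1.76 and 1.49 FPKM in normoxia and 63.8 and 68.6 in hypoxia. All 4 hypoxic libraries lay above all 4 normoxic ones. The order of the group means was hypoxic differentiation medium (66.2 ± 3.36, SD, n = 2), hypoxic growth medium (55.3 ± 2.05), normoxic differentiation medium (1.62 ± 0.185) and normoxic growth medium (0.154 ± 0.157), and libraries of neighbouring groups did not overlap. With 2 libraries a group, an exact permutation test of a single gene cannot go below p = 0.333, so p-values are from limma across all genes.

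The stated reason for picking Aire names growth medium alone, but earlier results of these data were known by then. In differentiation medium the gene rose 40.7-fold with hypoxia. The change was 4.68 ± 0.12 (SE) on the log2(FPKM + 1) scale, with an adjusted p of 5.01e-07 by limma. In this comparison 65.2% of genes passed the threshold and 37.5% were higher in hypoxia, so a call by itself is common, and Aire ranked 24 from the top of 12389. Leaving out hypoxic differentiation replicate B gave 4.63, and leaving out its replicate A gave 4.73. In growth medium, where the gene was picked, the difference was 5.61 on the same scale and ranked 6 from the top. That size depends on the treatment of values near 0, and it was 7.92 with 0.1 instead of 1 added to each FPKM. Differentiation medium went with a higher level in normoxia (a difference of 1.19) and hypoxia (0.26), both as descriptions, since each uses growth medium libraries by which Aire was picked.

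**Figure D1:**
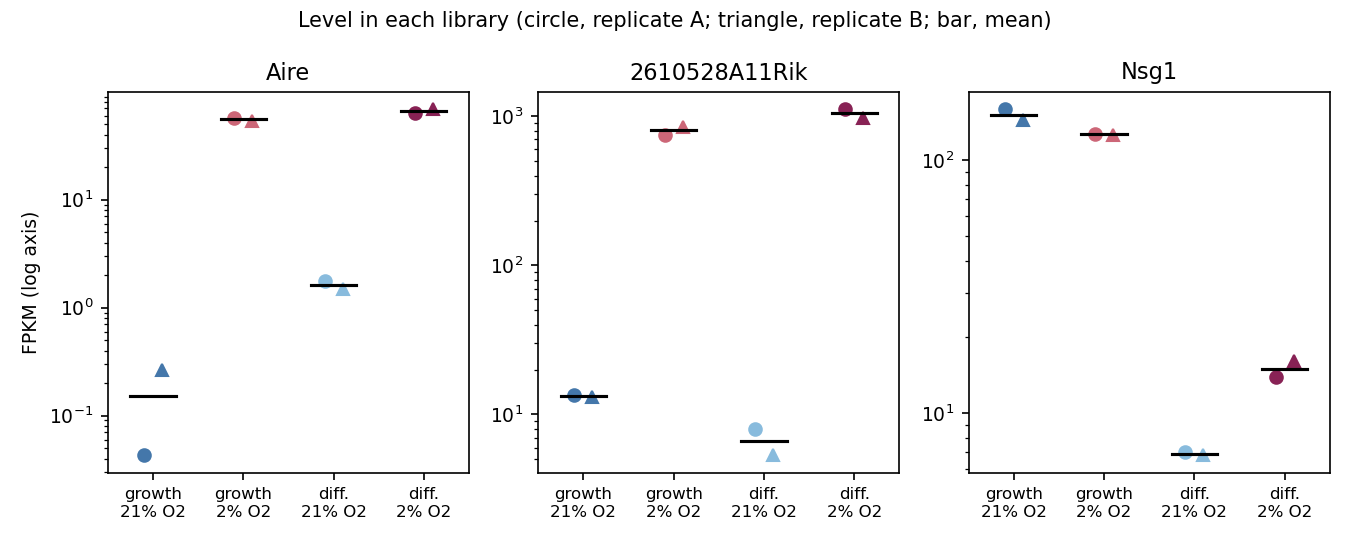
FPKM of Aire, 2610528A11Rik and Nsg1 on log axes in the 8 libraries, with circles for replicate A, triangles for replicate B and bars for the mean of 2. Aire and 2610528A11Rik are high in the 4 hypoxic libraries, and Nsg1 is high in the 4 growth medium libraries.

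2610528A11Rik was expressed in every library and reached the level of the most abundant mRNAs in hypoxia. It was 13.5 and 13.2 FPKM in normoxic growth medium and 756 and 855 in hypoxic growth medium. In differentiation medium it was 8.04 and 5.31 FPKM in normoxia and 1116 and 982 in hypoxia. Again every hypoxic library lay above every normoxic one, and libraries of neighbouring groups in the order of levels did not overlap. Only 81 of the 24043 genes had a higher mean FPKM in hypoxic differentiation medium, against 7296 in normoxic differentiation medium.

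The choice of 2610528A11Rik carries the same limit as that of Aire. In differentiation medium, outside the comparison named for its choice, 2610528A11Rik rose 157-fold with hypoxia, from 6.67 ± 1.93 to 1049 ± 95.2 FPKM (SD, n = 2). The log2 change was 7.12 ± 0.17 (SE, limma adjusted p 3.28e-07), which ranked 3 from the top of 12389 genes. In growth medium the means were 13.3 ± 0.277 and 805 ± 70.0 FPKM, a ratio of 60.3, and the difference of 5.81 ranked 4 from the top. The gene was lower in differentiation than in growth medium in normoxia (-0.93) and higher in hypoxia (0.38), both as descriptions. Across the 8 libraries Aire and 2610528A11Rik had a Pearson r of 0.96 in log2(FPKM + 1), a description of 8 points that fall into a hypoxic and a normoxic cluster.

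**Figure D2:**
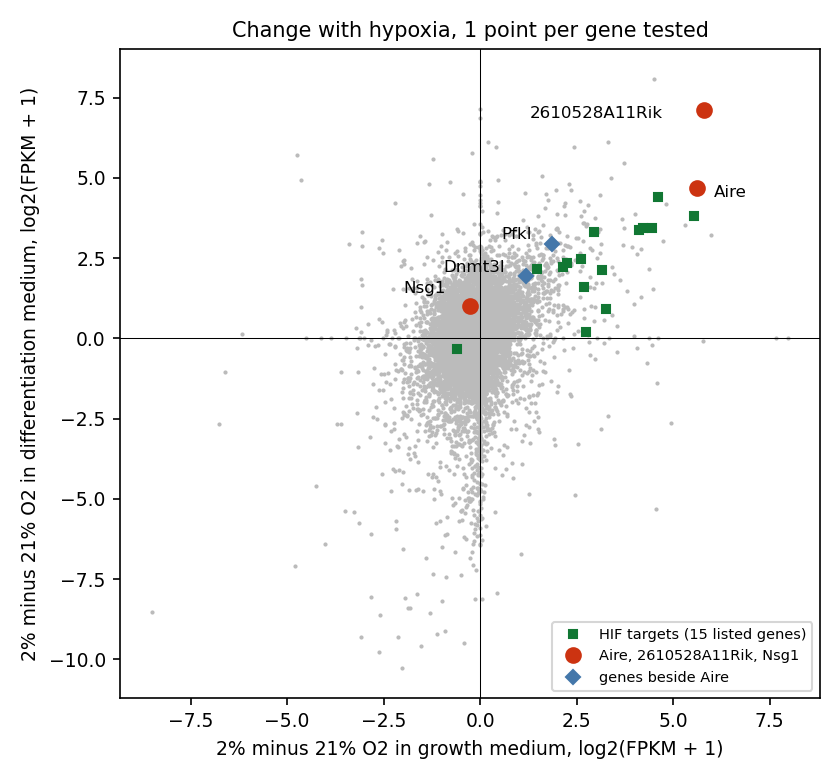
Difference between 2% and 21% oxygen in log2(FPKM + 1) for each of 12389 genes, in growth medium on the horizontal axis and in differentiation medium on the vertical axis, with squares for HIF targets and diamonds for Pfkl and Dnmt3l. 2610528A11Rik (5.81 and 7.12) and Aire (5.61 and 4.68) lie at the upper right beyond most of the 15 listed HIF targets, and Nsg1 lies near the centre.

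Genes of the core hypoxia response give the scale for these changes. Of 15 listed HIF targets, 14 rose and 1 fell with hypoxia in growth medium, where 13.5% of all genes were called higher and 28% lower by limma. In differentiation medium 13 rose and 0 fell, against 37.5% of all genes called higher and 27.7% lower. Their median change in log2(FPKM + 1) was 2.94 and 2.35 in the 2 media, beside -0.14 and 0.15 for all genes. The largest in differentiation medium were Ankrd37, an ankyrin repeat gene (4.40 ± 0.19, adjusted p 3.98e-06), the vasodilator peptide gene Adm (3.81 ± 0.12, adjusted p 1.06e-06), Ndrg1 (3.44 ± 0.21, adjusted p 1.67e-05) and the glycolytic regulator Pfkfb3 (3.43 ± 0.10, adjusted p 8.35e-07). The changes of Aire and 2610528A11Rik in this medium, 4.68 and 7.12, were numerically above those of all 15, a difference that was not tested.

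Nsg1 followed the medium more than the oxygen. It was 159 and 144 FPKM in normoxic growth medium and 127 and 126 in hypoxic growth medium. In differentiation medium Nsg1 was 7.01 and 6.81 FPKM at 21% oxygen and 13.9 and 16.1 at 2% oxygen. All 4 growth medium libraries lay above all 4 differentiation medium libraries. The fall by which Nsg1 was picked was taken as hypoxic differentiation against hypoxic growth medium. If it was meant against normoxic growth medium, the comparison in normoxia shares libraries with the choice. In normoxia Nsg1 fell by 4.27 ± 0.09 (SE) in log2(FPKM + 1) on differentiation, with an adjusted p of 3.03e-07 by limma, and was 21.9-fold lower. Of all genes, 66.5% passed in this comparison and 41% were lower in differentiation medium, and Nsg1 ranked 16 from the bottom of 12389.

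The fall of Nsg1 in hypoxia, by which it was chosen, was smaller than that in normoxia: 8.46-fold, a difference of -3.00. In that comparison 17.6% of all genes were called lower, a share from which nothing is read here. The changes with hypoxia were -0.25 in growth medium (-0.14 with median-of-ratios and -0.08 with upper-quartile scaling) and 1.01 in differentiation medium, where the mean was 2.17-fold higher, all as descriptions. The name of a strong hypoxia responder thus held for Aire and 2610528A11Rik, whereas Nsg1 was a gene lowered by differentiation medium at either oxygen level. The r of Nsg1 with Aire was -0.05 and with 2610528A11Rik 0.16 over the same 8 libraries.

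**Figure D3:**
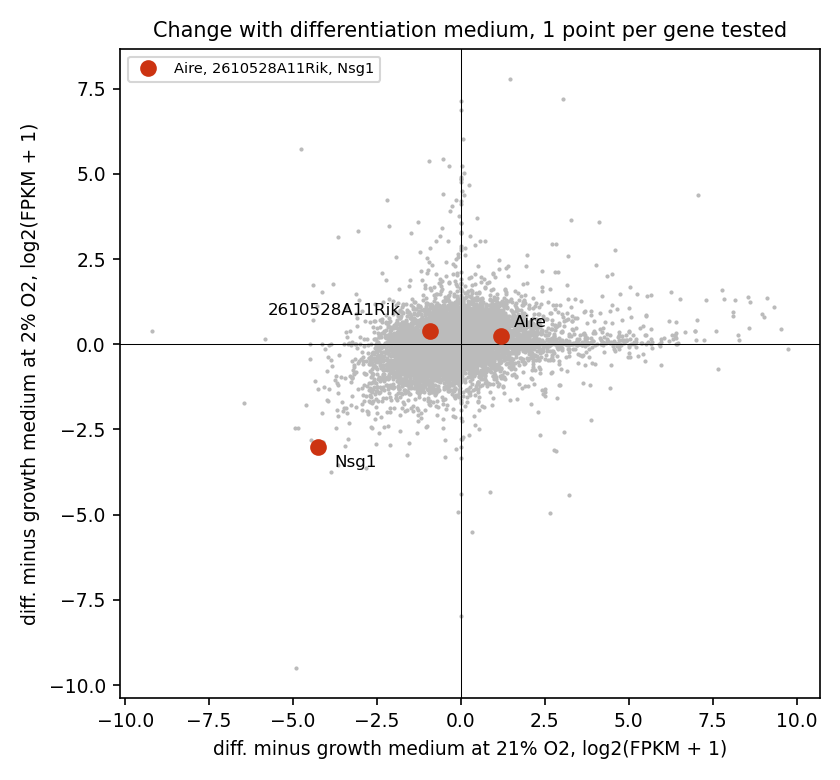
Difference between differentiation and growth medium in log2(FPKM + 1) for each of 12389 genes, at 21% oxygen on the horizontal axis and 2% oxygen on the vertical axis. Nsg1 (-4.27 and -3.00) lies at the lower left, and Aire and 2610528A11Rik lie near the centre.

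The genes beside each member were examined next, as the 4 nearest protein-coding genes on each side in RefSeq order that the table holds. Aire lies on chromosome 10 beside Pfkl, which encodes the liver subunit of the glycolytic enzyme phosphofructokinase, and overlaps Dnmt3l, a cofactor of DNA methyltransferases. Aire and Pfkl are on the minus strand with Pfkl downstream of Aire, and Dnmt3l is on the plus strand. Pfkl was 55.6 and 48.0 FPKM in normoxic and 184 and 194 in hypoxic growth medium. It was 34.4 and 28.5 FPKM in normoxic and 270.3 and 231 in hypoxic differentiation medium. Pfkl rose with hypoxia by 1.85 ± 0.13 in growth medium (limma adjusted p 0.000154) and 2.95 ± 0.13 in differentiation medium (adjusted p 3.98e-06).

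Dnmt3l was 0.136 and 0.0524 FPKM in normoxic and 1.39 and 1.63 in hypoxic growth medium, and 0.207 and 0.0550 in normoxic and 3.58 and 3.13 in hypoxic differentiation medium. The differences were 1.20 and 1.95 in the 2 media, given with no test because Dnmt3l passed the expression filter only through the hypoxic groups. Its level stayed far under that of Aire in hypoxia. The libraries were stranded, but the use of strand in counting is not given in the sources used here, so reads from the shared stretch of Aire and Dnmt3l cannot be assigned with certainty.

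On either side of this group, Trpm2, a cation channel gene, and Icosl, a T cell costimulatory ligand gene, had no group mean of 1 FPKM and were not tested. Trpm2 was 0.00875 and 0 FPKM in normoxic and 0.552 and 0.441 in hypoxic growth medium, and 0.0178 and 0.00709 in normoxic and 1.06 and 0.816 in hypoxic differentiation medium. Icosl was 0.0732 and 0.132 FPKM in normoxic and 0.685 and 0.725 in hypoxic growth medium, and 0.198 in both normoxic and 0.643 and 1.12 in hypoxic differentiation libraries. For both genes every hypoxic library lay above every normoxic one. The other neighbours did not share this pattern, and Lrrc3 was at most 0.0118 FPKM. 1810043G02Rik, which lies between Pfkl and Trpm2, rose with hypoxia in differentiation medium (1.84 ± 0.13, adjusted p 2.93e-05) and had a change of -0.21 ± 0.13 in growth medium (adjusted p 0.216). Pwp2, a ribosome biogenesis gene, fell with hypoxia in differentiation medium (-0.90 ± 0.12, adjusted p 0.00053). Of the 4 tested neighbours of Aire other than Dnmt3l, 1 rose and 0 fell with hypoxia in growth medium, where 13.5% of all genes were higher and 28% lower. In differentiation medium 2 rose and 1 fell, against 37.5% and 27.7% of all genes.

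**Figure D4:**
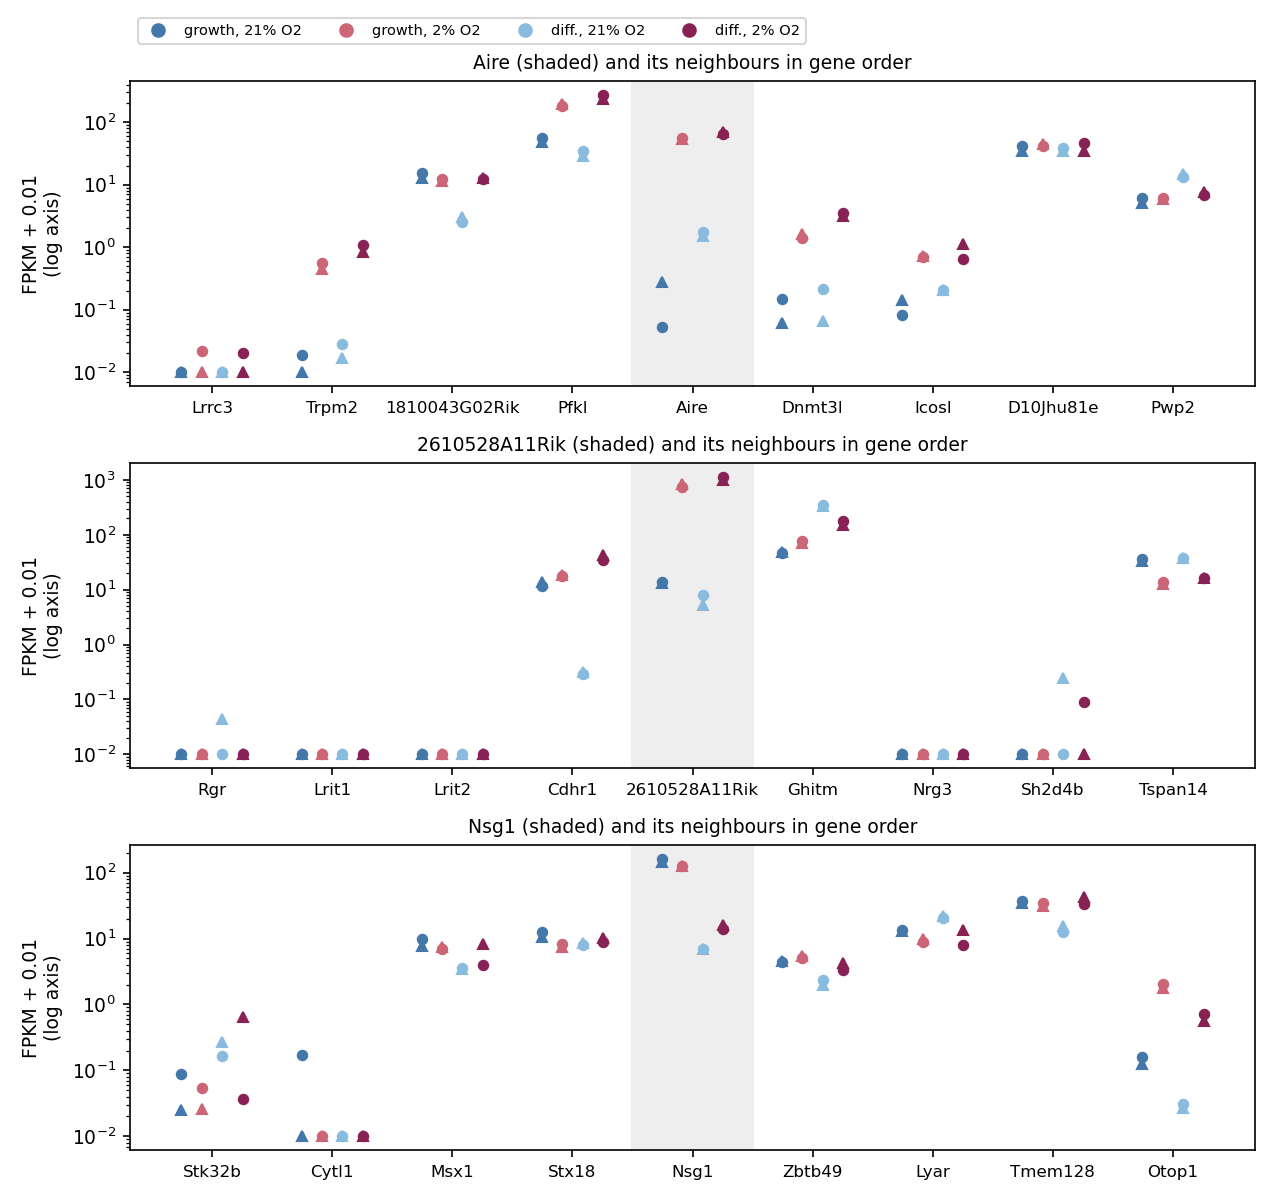
FPKM + 0.01 on log axes for each member (shaded) and its 4 nearest listed protein-coding genes on each side, in chromosome order and not to distance, with circles for replicate A and triangles for replicate B. At the Aire locus Trpm2, Pfkl, Dnmt3l and Icosl are higher in every hypoxic library. Cdhr1 beside 2610528A11Rik is also higher in every hypoxic library, as is Otop1 near Nsg1, which is at most 2.00 FPKM. Zbtb49 beside Nsg1 is higher in every growth medium library.

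2610528A11Rik lies on chromosome 14 between Cdhr1, a photoreceptor cadherin gene, and Ghitm, which encodes a protein of the mitochondrial inner membrane, and 5 of its 8 neighbours stayed under the expression filter. Cdhr1 was 11.7 and 13.9 FPKM in normoxic and 17.7 and 18.2 in hypoxic growth medium, and 0.277 and 0.307 in normoxic and 34.0 and 43.6 in hypoxic differentiation medium. It rose with hypoxia by 4.93 ± 0.14 in differentiation medium (limma adjusted p 7e-07) and by 0.46 ± 0.14 in growth medium (adjusted p 0.0378), where the call was lost in 6 of 14 alternatives, with an adjusted p of 0.174 without normoxic growth replicate A, of 0.13 and 0.158 without hypoxic growth replicates A and B, of 0.0748 and 0.076 without normoxic differentiation replicates A and B, and of 0.057 with no expression filter. Ghitm rose with hypoxia in growth medium (0.61 ± 0.09, adjusted p 0.00297) and fell in differentiation medium (-1.06 ± 0.09, adjusted p 9.85e-05). Tspan14, a tetraspanin gene, fell in both media, by 1.31 and 1.18 (adjusted p 9.46e-05 and 2.61e-05).

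Nsg1 lies on chromosome 5 and overlaps Stx18, a syntaxin gene of the endoplasmic reticulum, in RefSeq. Stx18 was 12.6 and 10.7 FPKM in normoxic growth medium and 7.88 and 8.47 in normoxic differentiation medium, and fell by 0.46 ± 0.12 (limma adjusted p 0.0125), a call lost after median-of-ratios scaling (adjusted p 0.114), without normoxic growth replicate A (adjusted p 0.0653) and without normoxic differentiation replicate A (adjusted p 0.0824). Of the 6 tested neighbours of Nsg1, 4 fell and 1 rose on differentiation in normoxia, where 41% and 25.5% of all genes were called in these directions. Among them, Tmem128 fell by 1.29 ± 0.14 (adjusted p 0.000268) and Zbtb49, a zinc finger gene, by 0.79 ± 0.13 (adjusted p 0.00152). The homeobox gene Msx1 fell by 1.09 ± 0.28 (adjusted p 0.0116), a call lost without normoxic growth replicate A or either normoxic differentiation library (adjusted p 0.0563 to 0.0724). Lyar, a nucleolar protein gene, rose by 0.64 ± 0.20 (adjusted p 0.0285), which was lost when any of the 4 libraries compared was left out (adjusted p 0.0937 to 0.131).

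The known route to Aire expression in the thymus runs from the ligand RANKL (Tnfsf11) through its receptor RANK (Tnfrsf11a) to the noncanonical NF-kB subunit Relb. Tnfrsf11a was at most 0.0257 FPKM and Tnfsf11 at most 0.186 FPKM in any library. With hypoxia in growth medium Relb had a change of -0.78 ± 0.30 (limma adjusted p 0.0792). In differentiation medium Relb was 21.1 and 19.9 FPKM in normoxia and 4.35 and 10.1 in hypoxia, and fell by 1.48 ± 0.30 (adjusted p 0.00447). Any part of this route in the level of Aire was not tested. The change of Relb was -0.96 without hypoxic differentiation replicate A and -2.01 without replicate B. Its partner Nfkb2 fell by 0.84 ± 0.29 (adjusted p 0.0379), a call lost in 8 of 14 alternatives, with an adjusted p of 0.0635 if no filter was set, of 0.119 in a fit of the 4 libraries alone, and of 0.0615 to 0.145 without either normoxic differentiation, normoxic growth or hypoxic growth library. Nfkb2 was 13.2 and 26.9 FPKM in hypoxic differentiation medium, and its change was -0.35 without replicate A and -1.32 without replicate B of that group. The adaptor Traf2 fell by 0.83 ± 0.15 (adjusted p 0.00301). In contrast, Traf6 rose by 0.82 ± 0.13 (adjusted p 0.00145) and Rela by 0.70 ± 0.17 (adjusted p 0.00917). Of the 16 listed inducers, 11 were tested, and 3 rose and 4 fell with hypoxia in differentiation medium, against 37.5% and 27.7% of all genes. In growth medium 1 rose and 3 fell, or 2 and 7 without either hypoxic differentiation library, against 13.5% and 28% of all genes.

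The inducer that rose most was Jmjd6, an oxygen-dependent lysyl hydroxylase with a Jumonji domain that acts on splicing factors. Jmjd6 was 23.3 and 22.4 FPKM in normoxic and 97.1 and 95.7 in hypoxic growth medium, and 35.8 and 33.7 in normoxic and 108 and 115 in hypoxic differentiation medium. It rose by 2.03 ± 0.07 (limma adjusted p 1.64e-05) and 1.66 ± 0.07 (adjusted p 3.95e-06) in the 2 media, with no overlap of hypoxic and normoxic libraries.

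The listed genes of proteins reported to act with AIRE on chromatin all passed the expression filter. Their RNA levels moved in both directions with hypoxia in differentiation medium. Of 19 listed partner genes, 5 rose and 4 fell with hypoxia in differentiation medium, with a median change of 0.00 beside 0.15 for all genes, of which 37.5% rose and 27.7% fell. After median-of-ratios scaling 3 rose and 7 fell. The DNA repair pair Xrcc6 and Xrcc5 went opposite ways (-1.33 ± 0.08, limma adjusted p 1.8e-05, and 1.15 ± 0.15, adjusted p 0.000669). The topoisomerase gene Top1 fell by 1.09 ± 0.11 (adjusted p 0.000179), and the SUMO ligase gene Pias1 rose by 0.84 ± 0.09 (adjusted p 0.000217). In growth medium 0 of the 19 rose and 7 fell, or 2 and 3 after either scaling of the libraries, and 2 and 9 or 2 and 10 without hypoxic differentiation replicate A or B, against 13.5% and 28% of all genes.

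Relatives of Aire that share its SAND or PHD domains had changes in both directions. Sp110 was at most 0.0756 FPKM in any library and was not tested. Of 8 listed, 7 were tested, and 3 rose and 1 fell with hypoxia in differentiation medium, or 2 and 2 with median-of-ratios factors, against 37.5% and 27.7% of all genes. The 1 that fell in the main fit was Sp100, a nuclear body gene, at 5.88 and 5.70 FPKM in normoxia and 0.739 and 0.802 in hypoxia. It passed the filter only through the normoxic groups, so no test is given. The count of falls is therefore not read against the share of all genes. Trim24, a transcriptional cofactor gene, rose by 1.34 ± 0.11 (limma adjusted p 6.92e-05). Deaf1 rose by 0.61 ± 0.14 (adjusted p 0.00695), which was lost without normoxic differentiation replicate B (adjusted p 0.058). Sp140 rose by 0.39 ± 0.10 (adjusted p 0.0154), which was lost without either normoxic differentiation library (adjusted p 0.0581 and 0.0712) and with median-of-ratios factors (adjusted p 0.068). Of 6 listed tissue antigen genes that depend on AIRE in the thymus, 4 (Spt1, Csn2, Fabp9 and Mup4) were listed at 0 in all 8 libraries and 0 were tested. The list summed to 0.955 and 0.859 FPKM in hypoxic growth medium. In hypoxic differentiation medium, where Aire was higher, the sums were 0.319 and 0, and in normoxia at most 0.450.

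The receptor of the 2610528A11Rik product, Gpr15, was at 0 in 6 libraries and at most 0.0945 FPKM. Of the 15 genes listed for this receptor and for antimicrobial peptides, 6 were listed at 0 in all 8 libraries and 5 were tested. With hypoxia in differentiation medium 1 rose and 3 fell, against 37.5% and 27.7% of all genes. The calprotectin subunit gene S100a8, 1 of the 3, was 12.6 and 12.2 FPKM in normoxia and 0 and 0.367 in hypoxia. It passed the filter only through normoxic differentiation medium, so no test is given. The count of falls is therefore not read against the share of all genes. The iron-binding lipocalin gene Lcn2 fell by 1.69 ± 0.17 (limma adjusted p 0.000165) and the protease inhibitor gene Slpi by 1.09 ± 0.20 (adjusted p 0.00251). The ribonuclease gene Rnase4 rose by 0.78 ± 0.17 (adjusted p 0.00639). In growth medium 0 rose and 3 fell, against 13.5% and 28% of all genes.

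The paralogs of Nsg1 were near absent, with Nsg2 at most 0.119 FPKM and Caly at most 0.125. Of 20 genes listed for this family and for endosomal sorting, 14 were tested, and 1 rose and 4 fell on differentiation in normoxia, against 25.5% and 41% of all genes. After median-of-ratios scaling 4 rose and 2 fell, after upper-quartile scaling 2 rose and 2 fell, and without either hypoxic differentiation library 1 rose and 7 fell. The recycling GTPase gene Rab4b fell by 1.14 ± 0.11 (limma adjusted p 0.000171) and the amyloid precursor protease gene Bace1 by 0.94 ± 0.08 (adjusted p 9.23e-05). The early endosome GTPase gene Rab5a rose by 1.03 ± 0.11 (adjusted p 0.000253). App, the amyloid precursor gene, fell by 0.42 ± 0.08 (adjusted p 0.00418), which was lost under both scalings (0.329 as the adjusted p with median-of-ratios, 0.0787 with upper-quartile). The fall of Nsg1 by 4.27 was numerically larger than any of these.

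**Figure D5:**
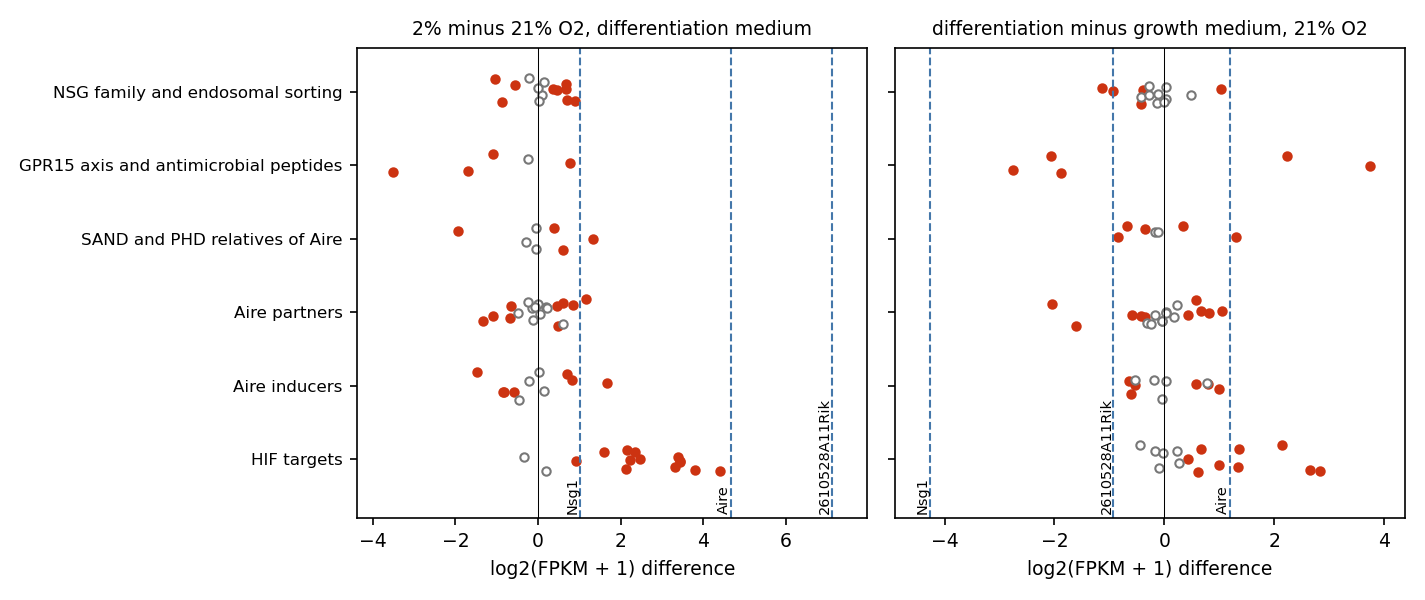
Difference in log2(FPKM + 1) of each tested gene of 6 lists, for hypoxia in differentiation medium (left) and for differentiation in normoxia (right). Filled points passed an adjusted p of 0.05 by limma, open points did not, vertical jitter has no meaning, and dashed lines mark Aire, 2610528A11Rik and Nsg1. The listed HIF targets lie mostly to the right of 0 on the left, and the other lists lie on both sides.

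Markers of the cell types in which these genes are known were then summed. Of 13 markers of medullary thymic epithelium, Krt18, Ccl21a and Fezf2 were listed at 0 in all 8 libraries, Epcam was at most 0.0782 FPKM and Foxn1 at most 0.487. The list summed to 13.9 and 15.3 FPKM in normoxic and 25.8 and 24.9 in hypoxic growth medium. In differentiation medium the sums were 34.8 and 33.3 FPKM in normoxia and 22.2 and 62.3 in hypoxia. Nearly all of it came from the costimulatory gene Cd80, at most 58.2 FPKM. Of the 2 markers tested, Cd80 was not called with hypoxia in growth or differentiation medium (limma adjusted p 0.159 and 0.931). The keratin gene Krt14 rose in differentiation medium, from 0 in both normoxic libraries to 1.33 and 3.49 FPKM (1.69 ± 0.27, adjusted p 0.00158). There 37.5% of all genes were higher. In growth medium the change of Krt14 was 0.47 ± 0.27 (adjusted p 0.218). Of 10 gut and skin epithelium markers, Cdx2, Krt20 and Krt1 were listed at 0 in all libraries and Cdh1 was at most 0.657 FPKM. This list summed to 4.90 to 8.63 FPKM in normoxia and 94.5 to 181 in hypoxia, and the keratin gene Krt19 took most of that, at 91.0 and 97.6 FPKM in hypoxic growth medium and 161 and 179 in hypoxic differentiation medium. Krt19 thus was higher in the same libraries as Aire and 2610528A11Rik, and any part of it in those results was not tested.

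Of 10 neuron markers, Snap25 was listed at 0 in all libraries and Rbfox3 was at most 0.0261 FPKM. The list summed to 108 to 165 FPKM in growth medium and 12.5 to 88.5 in differentiation medium. Stmn2, a regulator of microtubules, was the highest in growth medium, at 70.8 and 70.2 FPKM in normoxia, and was 6.13 and 5.09 in normoxic differentiation medium. Tubb3, a neuronal tubulin gene, was the highest in hypoxic differentiation medium, at 36.8 and 65.7 FPKM, above its 13.3 to 15.1 in growth medium, whereas Nsg1 was lower there than in growth medium. All 5 tested neuron markers fell on differentiation in normoxia by limma, as did 41% of all genes. Nefl and Nefm among them passed the filter only through growth medium, so the count is not read against that share. The 8 proliferation genes also fell there, from sums of 189 and 195 to 32.7 and 31.9 FPKM. Their part in the fall of Nsg1 was not tested. In hypoxic differentiation medium, where the proliferation sums were 30.1 and 185 FPKM, Nsg1 was 13.9 and 16.1. Among the 6 leukocyte markers, the T cell gene Cd3e was listed at 0 in all libraries and Ptprc was at most 0.0137 FPKM. Cd74, the only 1 tested, was at most 2.05 FPKM in growth medium. In differentiation medium Cd74 was 10.7 and 12.3 FPKM in normoxia and 3.54 and 2.14 in hypoxia. It rose on differentiation in normoxia (2.41 ± 0.29, limma adjusted p 0.000368) and fell with hypoxia in differentiation medium (-1.72 ± 0.29, adjusted p 0.00183).

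The genes whose pattern was most like each member were ranked by Pearson r of log2(FPKM + 1) over the 8 libraries, among 12251 other tested genes that are not small RNAs. For Aire they were Gpr35, a receptor gene (r = 0.9995), Unc13a, a synaptic vesicle priming gene (0.9966), Jmjd6 (0.9964), Gipr, the receptor gene for an incretin hormone (0.9952), and Ndrg1 (0.9944). Gpr35 was 0.292 and 0.368 FPKM in normoxic and 35.4 and 36.9 in hypoxic growth medium, and 1.69 and 1.55 in normoxic and 45.9 and 47.5 in hypoxic differentiation medium. Like Aire it was near absent in normoxic growth medium, intermediate in normoxic differentiation medium and high in hypoxia.

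For 2610528A11Rik they were Npepps, an aminopeptidase gene (r = 0.9986), the syndecan gene Sdc3 (0.9982), Cbln3 (0.9975), the liver glycogen phosphorylase gene Pygl (0.9974) and the corepressor gene Rcor2 (0.9972). Pygl was 0.616 and 0.860 FPKM in normoxic and 10.2 and 9.83 in hypoxic growth medium, and 0.458 and 0.442 in normoxic and 11.5 and 10.1 in hypoxic differentiation medium. For Nsg1 they were the matrix proteoglycan gene Spock2 (r = 0.9981), Zfp28 (0.9946), Angptl2 (0.9942), the kinesin gene Kif5a (0.9938) and Plscr4 (0.9937). Spock2 was 31.3 and 32.4 FPKM in normoxic and 29.6 and 29.8 in hypoxic growth medium, and 5.76 and 5.35 in normoxic and 9.30 and 9.19 in hypoxic differentiation medium. These correlations describe 8 libraries in 4 groups and carry no test.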

How the data were processed

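Gene expression was measured by stranded total RNA-seq. Per the submitters' processing notes, STAR 2.5.1b, Cufflinks 2.2.1 and build mm9 were used; the annotation, strand setting and filters are not given in the sources used here. The authors deposited 1 column of values per library, matched to a sample by its title, which were taken as FPKM from Cufflinks because they are not whole numbers; the table itself names no unit. limma 3.58.1 (R 4.3.3) was run on log2(FPKM + 1) with an intensity trend. Such changes understate those of genes near or under 1 FPKM. Genes whose mean reached 1 FPKM in any group were tested (12389), with 4 group means over 8 libraries (4 residual and 2.61 prior degrees of freedom), two-sided, with Benjamini-Hochberg adjustment over all genes and a threshold of 0.05. Aire, 2610528A11Rik and Nsg1 all passed this filter.

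The median change of all genes with hypoxia in differentiation medium was 0.15 as deposited and -0.03 after median-of-ratios scaling, and on differentiation in normoxia -0.20 and 0.03. Higher genes made up 57.5% of the calls with hypoxia in differentiation medium and 46.5% after that scaling, 38.4% and 53.6% for differentiation in normoxia, and 32.6% and 43.4% (49.3% with upper-quartile scaling) for hypoxia in growth medium.

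The members and lists were chosen with earlier results of these data known. Named genes are the 3 members, their 4 neighbours on each side, the 5 most alike in pattern, and from each list up to 4 with the largest change past the threshold plus receptors, inducers and paralogs. The examples shown for neighbours and like genes were picked from these with values in view. Traf6, Rela and the cell type markers named were also picked with values in view. Alternatives were another pseudocount, 2 scalings, no filter, only the libraries compared, a replicate block and leaving out each library.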

Additional observations from a re-analysis of the deposited data

Results flagged for a closer look

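Several genes had fitted changes of opposite sign in the 2 settings of the same contrast, with no overlap between libraries in either setting. Whether the 2 settings differ was not tested. All values are differences in log2(FPKM + 1). Differentiation medium went with a lower level of 2610528A11Rik in normoxia (-0.93) and a higher one in hypoxia (0.38). The same held for its neighbour Cdhr1 (-3.41 and 1.06), for Pfkl beside Aire (-0.70 and 0.40) and for Stx18, which overlaps Nsg1 (-0.46 and 0.24). Hypoxia went with a lower level of Nsg1 in growth medium (-0.25) and a higher one in differentiation medium (1.01), the former being -0.14 and -0.08 after median-of-ratios and upper-quartile scaling. This was also so for 1810043G02Rik (-0.21 and 1.84), Stx18 (-0.52 and 0.19) and Msx1 (-0.25 and 0.57), and the reverse for Ghitm (0.61 and -1.06). Some of these changes did not pass the threshold by limma, so no reversal is read from them. For hypoxia, Msx1 passed in neither medium (adjusted p 0.51 and 0.111). 1810043G02Rik did not pass in growth medium (adjusted p 0.216), nor Stx18 in differentiation medium (adjusted p 0.2). Stx18 also did not pass for differentiation in hypoxia (adjusted p 0.148).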

How the results depend on the processing

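The rises of Aire (4.53 to 5.27 over 14 alternatives, adjusted p at most 0.000317) and 2610528A11Rik (6.86 to 7.38, at most 0.000451) with hypoxia in differentiation medium and the fall of Nsg1 on differentiation in normoxia (-4.43 to -4.01, at most 2.59e-05) kept their direction and their side of the threshold in each. Numbers of genes called in all moved more. For hypoxia in growth medium the count of 5135 ranged from 2997 to 6844 when 1 library was left out (2997 and 3083 without hypoxic growth replicate A or B). For differentiation in hypoxia the count of 5073 ranged from 2501 to 6529 in the same way (2688 and 2501 without those libraries) and was 2867 with only the libraries compared. Over all 14 alternatives it ranged from 6370 to 9019 for hypoxia in differentiation medium and from 6352 to 9292 for differentiation in normoxia. Of 588 alternative values for 42 changes of other named genes, 0 reversed and 30 lost their call. Of 126 for the 9 described changes of the members, 0 reversed and 9 moved by more than the spread of replicates. List counts under scaling and without either hypoxic differentiation library were added after seeing the data. With the replicate block, counts were 4634, 7802, 7931 and 4453 (hypoxia in growth and differentiation medium, differentiation in normoxia and hypoxia), and the block changed none of the 3 calls on members. A-minus-B differences of the groups correlated from -0.166 to 0.042, so no replicate effect shared between groups was visible. Whether samples of the same letter were handled together cannot be told from these values. Leaving out a library leaves 1 in its group, which is assumed to vary like the others. Depth is unknown, which limits values under 1 FPKM, such as Aire in normoxic growth medium.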
